A study of Mus musculus with 2 samples.

Results

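A set of 10 genes of ferroptosis, iron handling and haem breakdown was followed across the cell classes of the injured mouse kidney: Fth1, Ftl1, Ncoa4, Tfrc, Slc40a1, Hmox1, Gpx4, Slc7a11, Acsl4 and Aifm2. They were listed by name for their known roles, and all 10 were found by symbol among the 32285 genes of the deposited count matrices. The kidneys had undergone unilateral ischaemia and reperfusion (IRI) by clamping of the renal artery, the mice then received 4 tamoxifen injections, and cells were taken 14 days after the injury. The control library came from Cre- mice and the haplodeficient library from Cdh5-CreERT2; Phd3f/+ mice, in which a tamoxifen-activated Cre recombinase driven by the endothelial Cdh5 promoter acts on 1 floxed allele of Phd3 (gene symbol Egln3), an oxygen-sensing prolyl hydroxylase. Injury, tamoxifen and batch 1 were common to both libraries, so an uninjured kidney is not part of the comparison. Each group was 1 library; strain, age and the number of animals pooled in each are not given in the sources used here. No difference between the libraries therefore has a replicate check, no p-value is given, and every interval covers counting error only.

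Ferroptosis is an iron-dependent death caused by peroxidation of membrane lipids. GPX4 is the selenoprotein that reduces lipid peroxides with glutathione, SLC7A11 imports the cystine needed for glutathione, AIFM2 (also FSP1) regenerates ubiquinol as a second radical trap, and ACSL4 loads polyunsaturated fatty acids, the peroxidation substrate, into lipids. Iron enters on transferrin through TFRC, is stored in ferritin shells made of FTH1 and FTL1, is released when NCOA4 delivers ferritin to the lysosome, and leaves the cell through SLC40A1 (ferroportin). HMOX1 opens haem to biliverdin, carbon monoxide and free iron. Proximal tubule cells reabsorb filtered iron and are a main target of ischaemic injury, and macrophages recycle the iron and haem of dead cells.

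Positions in the mouse GRCm38 build, from GENCODE M21, are Fth1 at chr19:9980598-9985098, Ftl1 at chr7:45457944-45459884, Ncoa4 at chr14:32159865-32179855, Tfrc at chr16:32608920-32632794, Slc40a1 at chr1:45908068-45926523, Hmox1 at chr8:75093621-75100589, Gpx4 at chr10:80047166-80056439, Slc7a11 at chr3:49892526-50443614, Acsl4 at chrX:142317993-142390535 and Aifm2 at chr10:61715263-61739260. Gene Gm37854 overlaps Slc7a11 and H2afy2 overlaps Aifm2 on the opposite strand, and whether the authors' counting used strand is not given in the sources used here. Iron itself controls several of these mRNAs through the iron-responsive element (IRE), a hairpin that iron regulatory proteins bind when iron is scarce: in a 5′ UTR it blocks translation, and in a 3′ UTR it protects the mRNA from decay. A search of the annotated UTRs for a bulged C, 5 bases, the loop CAGTGN and 5 bases that pair with the first 5 (G paired with U allowed, sense strand) found it in 4 of the 10 genes. Such a match was present in the 5′ UTR of 31 of 20916 genes (0.148%) and the 3′ UTR of 129 of 21039 genes (0.613%). The matches are shown because elements at the 5′ and 3′ ends act in different ways on these 4 genes; capitals mark the loop, each is read 5′ to 3′ on the gene's strand, and a match is a description of the letters.
Fth1, 5′ UTR, chr19:9982733-9982759, plus strand: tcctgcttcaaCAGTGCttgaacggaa
Ftl1, 5′ UTR, chr7:45459780-45459806, minus strand: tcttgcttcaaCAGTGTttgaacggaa
Slc40a1, 5′ UTR, chr1:45925466-45925492, minus strand: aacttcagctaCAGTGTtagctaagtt
Tfrc, 3′ UTR, chr16:32631220-32631246, plus strand: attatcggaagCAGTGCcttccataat
Tfrc, 3′ UTR, chr16:32631599-32631625, plus strand: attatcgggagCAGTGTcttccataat
Tfrc, 3′ UTR, chr16:32631664-32631690, plus strand: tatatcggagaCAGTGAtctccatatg
Tfrc, 3′ UTR, chr16:32631711-32631737, plus strand: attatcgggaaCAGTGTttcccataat
The ferritin genes and Slc40a1 each held 1 match and Tfrc held 4, while no match was found in the annotated UTRs of the other 6 members. UMI counts read mRNA only, so translational control through the 5′ elements is not visible in what follows.

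Barcodes were kept at 500 UMIs, 200 genes and at most 50% mitochondrial UMIs, which after doublet removal left 8737 cells with 107516682 UMIs in the control library and 9222 cells with 93805552 UMIs in the haplodeficient one. The libraries differed in depth and mitochondrial content, with medians of 8796 UMIs and 10.1% mitochondrial UMIs per control cell against 5482.5 UMIs and 2.69% per haplodeficient cell, and 28 kept barcode sequences occurred in both. Clustering without the members gave 40 clusters, 33 of which could be called "X-like" from the listed markers. The 7 others (15.9% and 16.1% of cells) are called by their leading genes. Of those only the Defb36-led cluster met under 3 markers of every class. The rest met enough markers but had markers of 2 classes or leading genes of another class. The 25 classes with at least 30 cells in each library were compared, 18 of them named. All fixed markers of the proximal tubule, injured tubule, endothelial, macrophage, monocyte and neutrophil classes had UMIs in both libraries. Some were very low, such as Cyp4a14 at 1.71 CPM in haplodeficient proximal-tubule-like cells of S3, so the presence of UMIs does not check the names. There were 3004 control but 317 haplodeficient proximal-tubule-like cells, so levels are given per class and never over all cells. Egln3 in the main endothelial-like class was at 23.9 CPM (UMIs scaled to a class total of 1000000; 44 UMIs) in control and 23.5 CPM (99 UMIs) in haplodeficient cells; in the Cldn5-led unnamed clusters it was 21.6 against 11.8 CPM and 28.8 against 10.1 CPM. These are 3′ counts and the floxed exon is not given in the sources used here, so they check neither the label nor the deletion. RNA free in the suspension reaches all droplets, and its level was read from barcodes with 1 to 100 UMIs.

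**Figure D1:**
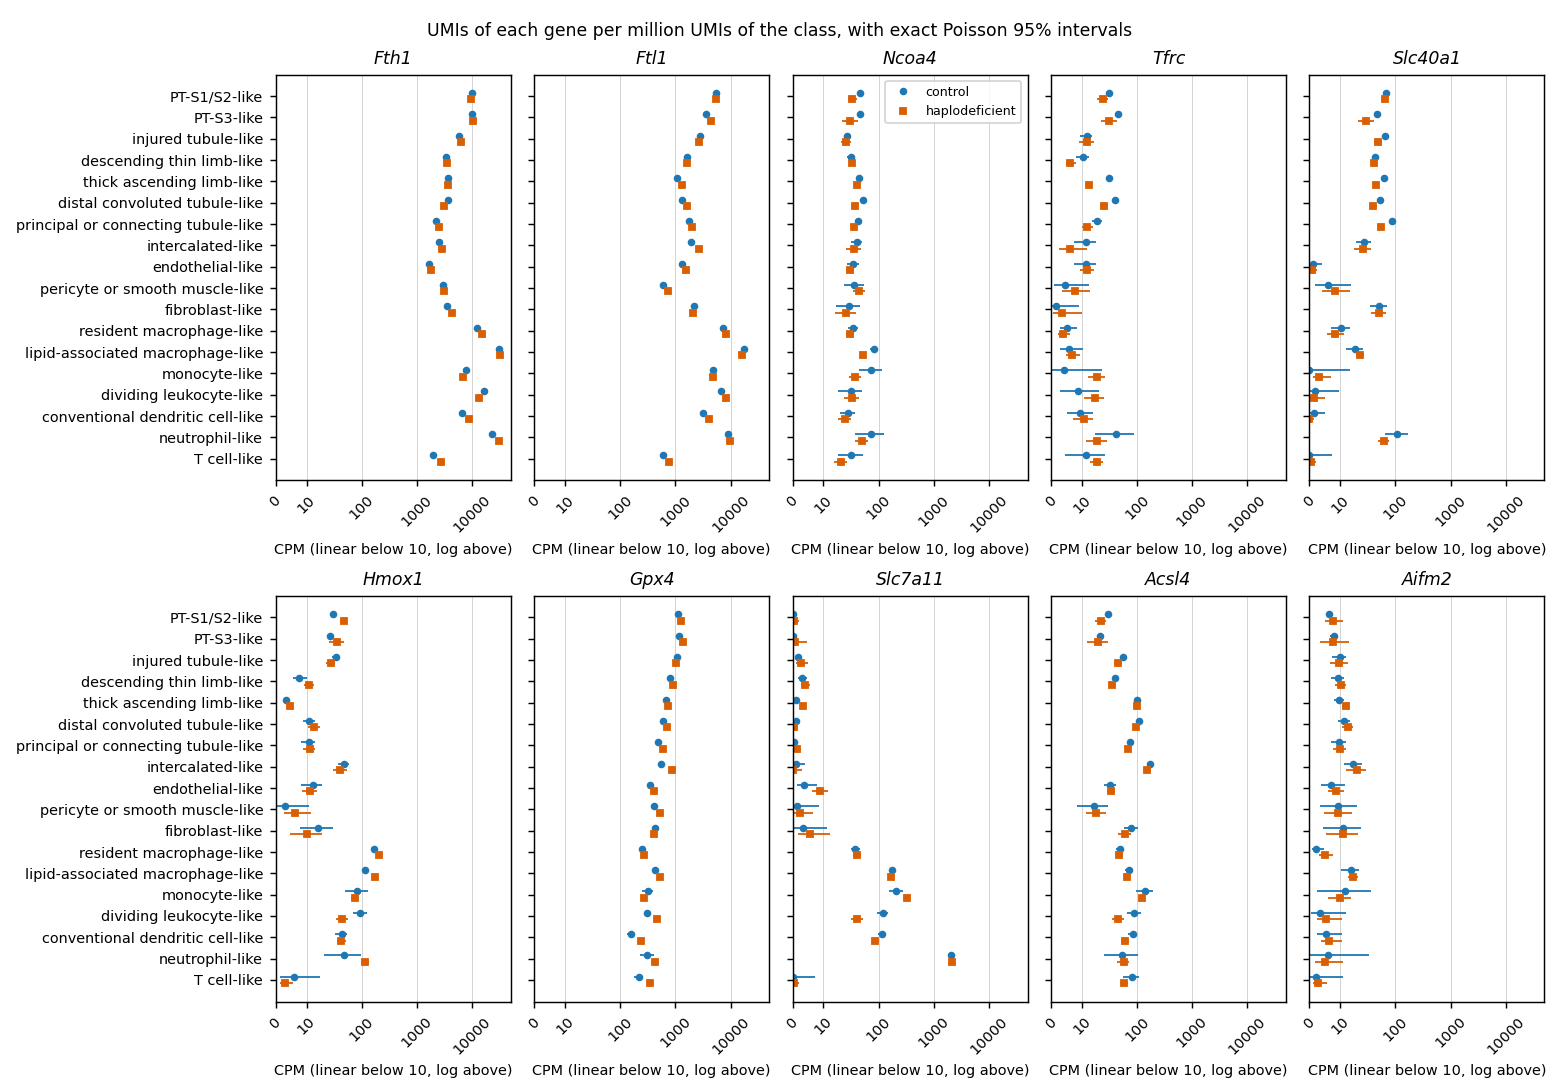
Level of each of the 10 genes in CPM (x axis, linear below 10 and logarithmic above) in the 18 named cell classes (y axis), with exact Poisson 95% intervals; circles are the control and squares the haplodeficient library. Ferritin is highest in the lipid-associated-macrophage-like class in both libraries, Slc7a11 stands above 2000 CPM in the neutrophil-like class, and Slc40a1 lies near 0 in endothelial-like and T-cell-like cells.

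Ferritin mRNA was the most abundant product of the set and was concentrated in myeloid cells and proximal tubule. Fth1, the heavy chain that oxidises iron for storage, reached 30579 CPM (95% interval 30328 to 30831) in control and 31726 CPM (31574 to 31879) in haplodeficient lipid-associated-macrophage-like cells. Neutrophil-like cells followed with 22529 and 29992 CPM, then dividing leukocytes with 16649 and 13450 CPM and resident-macrophage-like cells with 12357 and 14949 CPM. The last pair changed order between the libraries, whereas the order of the first 2 was the same in both. Proximal-tubule-like cells of S1/S2 held 10039 and 9455 CPM and those of S3 9870 and 10521 CPM, injured-tubule-like cells 5855 and 6139 CPM, and the thick-ascending-limb-like class 3699 and 3706 CPM. The lowest named class was endothelial, with 1684 and 1815 CPM, of which an estimated 24.4% and 34.2% was free RNA, in which Fth1 itself was at 6058 and 8215 CPM.

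Ftl1, the light chain that stabilises the iron core, had the same leading class, 17797 CPM in control and 16210 CPM in haplodeficient lipid-associated-macrophage-like cells. Neutrophil-like cells held 8862 and 9742 CPM, resident-macrophage-like cells 7267 and 8161 CPM, and S1/S2 cells 5468 and 5518 CPM. Both chains together made up 4.84% and 4.79% of all UMIs of the lipid-associated-macrophage-like class, against 1.96% and 2.31% in resident macrophages, 1.55% and 1.497% in S1/S2 cells and 0.300% and 0.335% in endothelium. The ratio of Fth1 to Ftl1 UMIs was not constant: it was 4.86 and 4.18 in pericytes and smooth muscle, 3.47 and 2.84 in thick ascending limb, 1.72 and 1.96 in lipid-associated macrophages, and 1.29 and 1.04 in intercalated cells. The pseudogene Ftl1-ps1, counted apart, stayed at or below 96.8 CPM, so few reads carried its name. Its sequence is near that of Ftl1 and reads could be shared between them.

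Ncoa4, the receptor that sends ferritin to the lysosome, had a narrow range next to ferritin. Its control levels ran from 27.3 CPM in injured-tubule-like cells to 83.4 CPM in lipid-associated-macrophage-like cells, with a median of 37.8 CPM over the 25 classes. The highest haplodeficient level was 51.8 CPM, in the same macrophage class, and the neutrophil-like class stood at 72.7 and 49.5 CPM. Tfrc, the transferrin receptor, was found mainly in tubule classes: S3 cells held 45.8 CPM (848 UMIs) and 31.6 CPM (37 UMIs), distal-convoluted-tubule-like cells 39.7 and 25.4 CPM, and S1/S2 cells 31.3 and 23.8 CPM. The unnamed cluster led by Calb1 held 27.0 and 37.4 CPM, and neutrophil-like cells 42.4 CPM from 7 UMIs and 18.8 CPM from 22 UMIs. Macrophages held little of it, with 5.06 and 3.88 CPM in resident and 5.92 and 6.83 CPM in lipid-associated cells. Both were too low for most comparisons between libraries: Tfrc reached the 50 CPM and 30 UMI minimum in 0 of 25 classes and Ncoa4 in 3.

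Slc40a1, the only known cellular iron exporter, was spread along the nephron and low in vessels, T cells, monocytes and dendritic cells. Principal-or-connecting-tubule-like cells had 85.5 CPM (77.3 to 94.4) and 55.6 CPM (49.99 to 61.6), S1/S2 cells 67.5 and 63.8 CPM, injured-tubule-like cells 64.3 and 48.9 CPM, and thick-ascending-limb-like cells 61.2 and 44.4 CPM. Fibroblast-like cells were at 50.2 and 49.8 CPM. Neutrophil-like cells gave 109 CPM from 18 control UMIs and 61.5 CPM from 72 haplodeficient UMIs. Macrophages, the classical iron exporters of the spleen and liver, had lower levels in these kidneys: 10.5 and 8.25 CPM in resident and 18.3 and 23.0 CPM in lipid-associated cells, below every named tubule class, although the haplodeficient interval of the lipid-associated class (19.0 to 27.4) overlapped that of intercalated-like cells (17.5 to 36.9). In the main endothelial-like class 2 UMIs were counted among 1842824 and 4 among 4220871, and free RNA was estimated to cover 100% of them. When each cell was thinned to 1000 UMIs, 28 of 372 control and 29 of 558 haplodeficient principal-like cells (7.53% and 5.197%) kept a UMI (31.8% and 30.0% before thinning), against 0 of 251 and 0 of 603 endothelial-like cells, which allows up to 1.195% and 0.498% (0.735% and 0.475% before thinning). Median depths in those classes were 7700 and 7264 UMIs for principal-like and 3636.5 and 3860 UMIs for endothelial-like cells.

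Hmox1, the inducible haem oxygenase, was highest in macrophages. It stood at 166 CPM (151 to 182) and 206 CPM (193 to 220) in resident-macrophage-like cells, at 117 and 174 CPM in lipid-associated-macrophage-like cells and at 82.4 and 76.4 CPM in monocyte-like cells. Neutrophil-like cells held 48.5 CPM from 8 UMIs and 115 CPM from 135 UMIs. Dividing leukocytes held 93.4 CPM from 54 UMIs and 43.7 CPM from 63 UMIs. Intercalated-like cells, at 47.3 and 40.5 CPM, were the highest tubule class of the control. S1/S2 cells held 30.7 and 46.7 CPM, injured-tubule-like cells 33.4 and 27.3 CPM, and thick-ascending-limb-like cells only 3.39 and 4.51 CPM, of which an estimated 50.6% and 40.6% was free RNA. After thinning, 84 of 579 and 120 of 805 resident-macrophage-like cells (14.5% and 14.9%) kept an Hmox1 UMI, against 2 of 165 and 2 of 973 T-cell-like cells (1.21% and 0.206%). Before thinning the shares were 33.2% and 30.9% against 1.78% and 0.806%, at median depths of 4228.5 and 4056.5 UMIs in resident macrophages and 2667 and 2547.5 UMIs in T cells. Haemoglobin and other red-cell transcripts, a sign of erythrocytes, summed to 3.61 and 2.91 CPM in the resident-macrophage-like class; the cell suspension had passed through red-cell lysis.

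Among named classes Gpx4 was highest in proximal tubule and lowest in dendritic-like cells. The unnamed cluster led by Defb36 and Cpn1 stood higher still, at 1353 and 1777 CPM, with an estimated 37.7% of the control value from free RNA. S3 cells held 1170 and 1397 CPM, S1/S2 cells 1121 and 1255 CPM, and injured-tubule-like cells 1056 and 1030 CPM. Descending-thin-limb-like cells held 808 and 914 CPM, thick-ascending-limb-like cells 668 and 734 CPM, and distal-convoluted-tubule-like cells 585 and 694 CPM. The order of these 6 classes was the same in both libraries, and S3 stood above S1/S2 without overlap of intervals in each (1155 to 1186 against 1107 to 1136 in control, 1330 to 1467 against 1218 to 1293 in haplodeficient cells). The clusters inside these classes interleaved, however: the S1/S2 clusters led by Slc5a12 and by Dnase1 stood at 1076 and 1344 CPM in control and 1223 and 1763 CPM in haplodeficient cells, while the main S3 cluster stood at 1083 and 1350 CPM. The order of S3 and S1/S2 therefore does not hold cluster by cluster. Conventional-dendritic-like cells were lowest in both, at 155 and 236 CPM, with T-cell-like cells at 217 and 345 CPM and resident-macrophage-like cells at 251 and 265 CPM. Up to 22.1% of leukocyte Gpx4 was estimated as free RNA.

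Slc7a11, the cystine importer, was highest in myeloid classes and near 0 along the nephron. Neutrophil-like cells held 2090 CPM (1875 to 2323) from 345 UMIs in control and 2132 CPM (2049 to 2217) from 2498 UMIs in haplodeficient cells. Monocyte-like cells followed with 206 and 321 CPM, lipid-associated-macrophage-like cells with 174 and 167 CPM, dendritic-like cells with 115 and 86.6 CPM, and resident-macrophage-like cells with 37.9 and 40.5 CPM. Every named tubule class was at or below 4.07 CPM, and the 3004 control proximal-tubule-like cells gave 4 UMIs in all among 40155391. After thinning, 63 of 96 and 361 of 569 neutrophil-like cells (65.6% and 63.4%) kept a Slc7a11 UMI and 0 of 165 and 0 of 973 T-cell-like cells did, which allows up to 1.82% and 0.308%; the unthinned neutrophil shares were 74.8% and 71.9%, at median depths of 1559 and 1774 UMIs. The free RNA of the haplodeficient library held more of it, 36.2 against 5.81 CPM, and that library also held more neutrophil-like cells, 615 against 103.

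**Figure D2:**
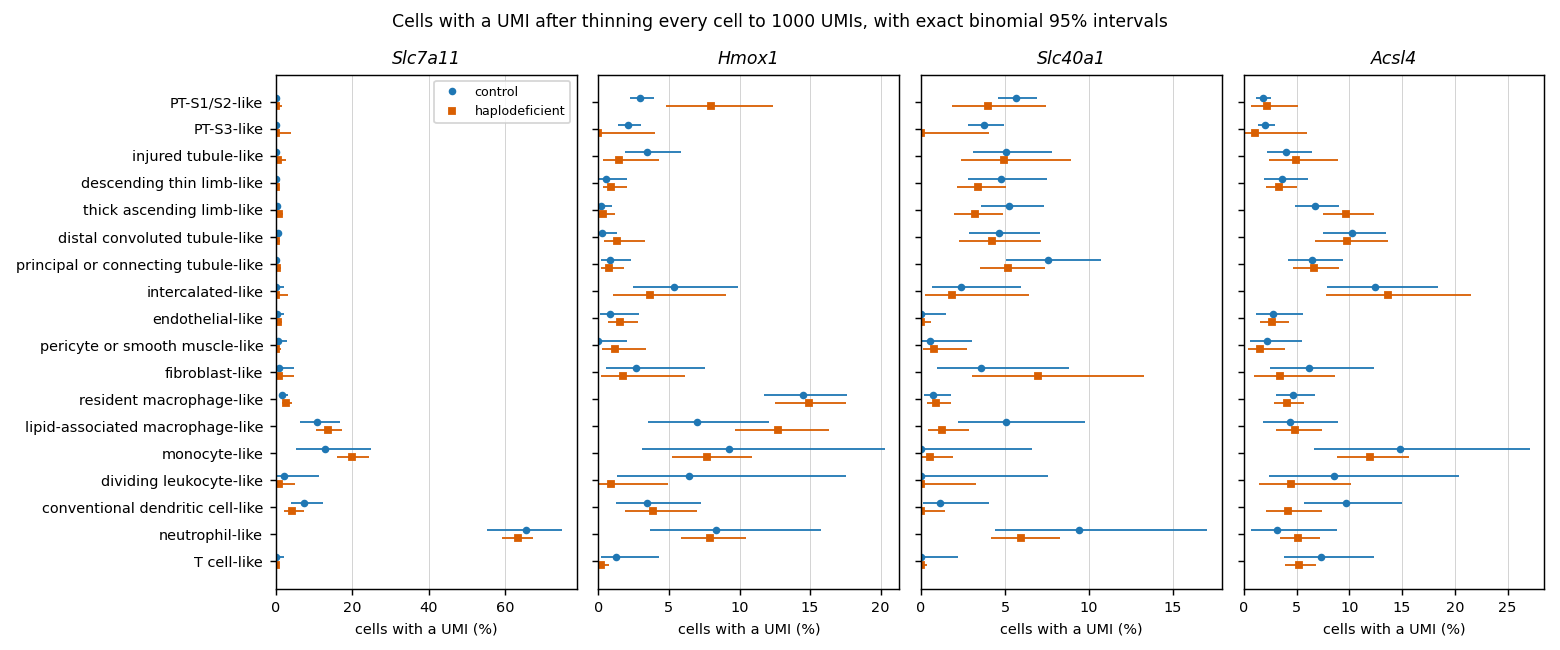
Percentage of cells (x axis) in which a UMI of Slc7a11, Hmox1, Slc40a1 or Acsl4 was seen after every cell was thinned to 1000 UMIs, by named class (y axis), with exact binomial 95% intervals; circles are the control and squares the haplodeficient library. The share for Slc7a11 is 65.6% and 63.4% in neutrophil-like cells and 0 in T-cell-like cells, and the highest shares for Hmox1 are those of resident-macrophage-like cells.

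Acsl4 had a different map from the other ferroptosis genes. Among named classes intercalated-like cells were highest, at 174 CPM (155 to 195) and 154 CPM (132 to 178), followed by monocyte-like cells at 140 and 122 CPM, distal-convoluted-tubule-like cells at 108 and 96.2 CPM and thick-ascending-limb-like cells at 98.5 and 99.6 CPM. The intervals of the first and second class overlapped in both libraries (97.1 to 196 and 107 to 139 for monocytes). Proximal tubule was among the lowest, with 29.5 and 22.3 CPM in S1/S2 and 21.5 and 19.6 CPM in S3 cells, the named classes in which Gpx4 was highest. Aifm2 was low in all classes, at most 17.1 CPM in control (intercalated-like, 30 UMIs) and 19.8 CPM in haplodeficient cells (the same class, 23 UMIs), with 15.6 and 17.1 CPM in lipid-associated-macrophage-like cells. Its mean reached 50 CPM in 0 of 25 classes, so its levels are given without further comparison between libraries.

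The genes whose class profile lay nearest to each member were found over the 50 class-by-library profiles, by Pearson's r of log2(CPM + 5) among 3754 genes of mean 50 CPM or more. These are descriptions; profiles share libraries, depth and free RNA. Fth1 and Ftl1 were each other's nearest gene (r = 0.911), followed by Plin2, the lipid-droplet coat gene (0.880 and 0.878). Hmox1 lay nearest to Ftl1 (0.869) and to Ctsa and Man2b1, which encode lysosomal enzymes (0.858 and 0.855). Slc7a11 lay nearest to the C-type lectin genes Clec4d, Clec4e and Clec4n (0.979, 0.970 and 0.962), and Gpx4 to Ndufb4 and Ndufb6, subunits of respiratory complex I, and Romo1 (0.921, 0.918 and 0.912). The nearest genes of the others were less alike: Rap1gap2 for Acsl4 (0.821), Nt5c2 for Slc40a1 (0.786), Plxnb2 for Aifm2 (0.684), Slc25a30 for Tfrc (0.642) and Adipor1 for Ncoa4 (0.627).

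Injury state was read within each library as injured-tubule-like cells (378 control, 203 haplodeficient), defined by markers such as Havcr1 and Vcam1, against the pooled proximal-tubule-like cells. The injured-tubule-like cluster met 6 of 12 injury markers, and the descending-thin-limb-like cluster met 6 of 12 of them as well. A gene was counted as different when its log2 ratio of (CPM + 5) was at least 1 in size and the Poisson intervals of the classes did not overlap, among genes of mean 50 CPM and 30 UMIs. By this size rule 0 of 10 members differed in either library, 4 of them having the counts to be judged, where 25.3% of 3252 control genes and 15.2% of 3376 haplodeficient genes did. The median log2 ratio of all those genes was 0.32 in control and 0.09 in haplodeficient cells. The mitochondrial share of UMIs was 21.9% in control proximal-tubule-like cells against 6.66% in injured cells (9.78% against 4.46% in haplodeficient cells). Ferritin values with mitochondrial UMIs left out of the total are given below. The part of mitochondrial content in the ratios was not tested.

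Ferritin was lower in injured-tubule-like cells in both libraries. Fth1 stood at 9961 CPM in control proximal tubule and 5855 CPM in injured cells, a ratio of 0.588 (0.581 to 0.594), and at 9725 and 6139 CPM in haplodeficient cells, a ratio of 0.631 (0.621 to 0.642). Ftl1 had ratios of 0.614 (0.604 to 0.623) and 0.517 (0.505 to 0.529). On the log2 scale these are -0.77, -0.66, -0.70 and -0.95, inside the limit of the size rule; leaving mitochondrial UMIs out of the total put Fth1 at -1.02 in control and Ftl1 at -1.03 in haplodeficient cells, past it. Leaving out the proximal tubule cluster with the highest mitochondrial share (696 control and 45 haplodeficient cells) gave -0.74, -0.63, -0.64 and -0.92 for the same 4 values. Over all alternatives Fth1 ran from -1.10 to -0.45 and from -1.20 to -0.24, and Ftl1 from -1.04 to -0.38 and from -1.28 to -0.58, with no change of sign.

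Tfrc was also lower in injured cells, 38.0 CPM against 12.2 CPM in control cells (ratio 0.322, interval 0.2503 to 0.407) and 25.8 against 12.4 CPM in haplodeficient cells (0.480, 0.331 to 0.686). Ncoa4 stood at 45.7 against 27.3 CPM and 32.7 against 25.6 CPM, ratios of 0.598 (0.506 to 0.703) and 0.783 (0.596 to 1.02). Acsl4 went the other way, 25.8 against 55.3 CPM and 21.6 against 45.2 CPM, ratios of 2.14 (1.89 to 2.43) and 2.09 (1.61 to 2.71). These 3 genes were under the 50 CPM minimum, so the size rule was not applied to them. Gpx4 was close to level, with ratios of 0.923 (0.899 to 0.948) and 0.798 (0.765 to 0.832).

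Slc40a1 and Hmox1 gave opposite signs in the libraries. Slc40a1 had ratios of 1.11 (0.994 to 1.24) and 0.886 (0.725 to 1.08), both intervals including 1. Hmox1 had ratios of 1.16 (0.988 to 1.34) and 0.625 (0.484 to 0.801); its reference level differed more between libraries (28.9 and 43.7 CPM) than its level in injured cells (33.4 and 27.3 CPM). Slc7a11 rested on 4 against 10 UMIs and 3 against 9 UMIs, and Aifm2 ratios were 1.38 (1.02 to 1.83) and 1.29 (0.781 to 2.13).

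**Figure D3:**
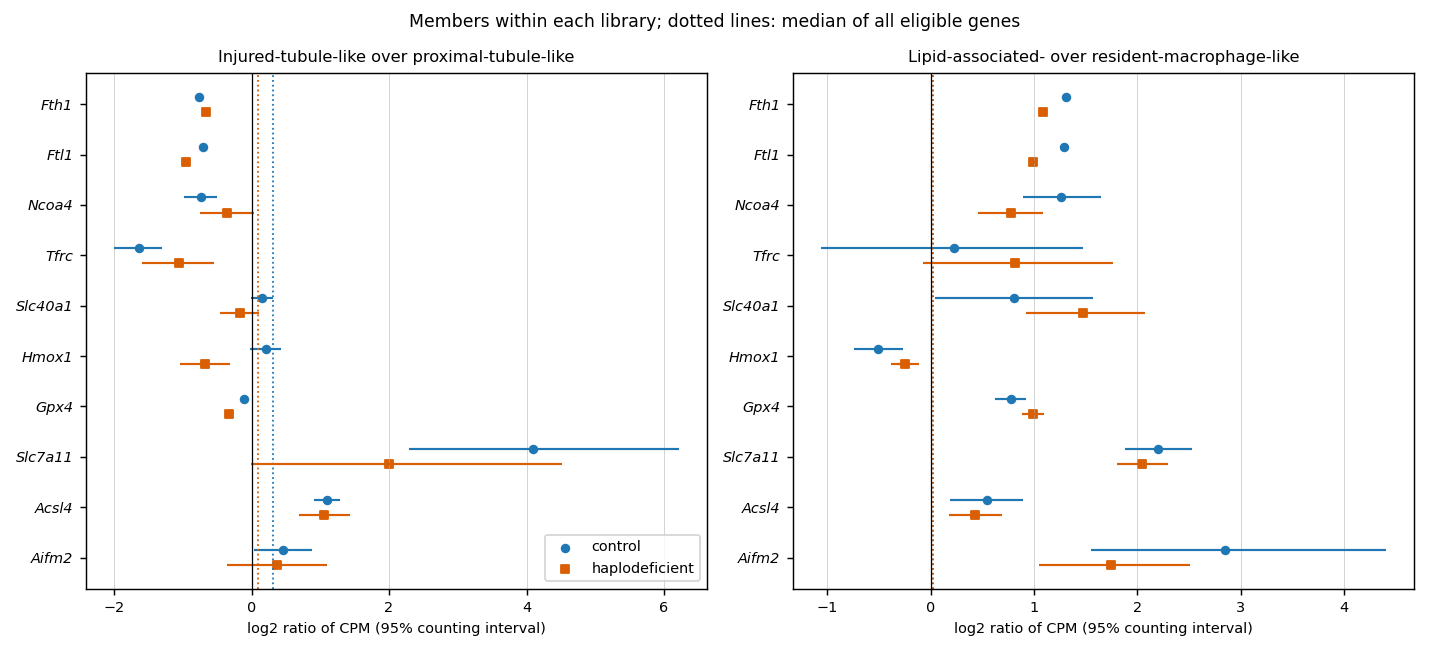
Log2 ratio of CPM (x axis) of the 10 genes (y axis) with 95% counting intervals, injured-tubule-like over proximal-tubule-like cells on the left and lipid-associated- over resident-macrophage-like cells on the right; circles are the control, squares the haplodeficient library, and dotted lines the median log2 ratio of (CPM + 5) of all genes judged. Fth1, Ftl1 and Tfrc lie left of 0 in injured cells and Acsl4 right of it, whereas in lipid-associated macrophages Hmox1 is the only member left of 0.

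The other genes of these pathways, from 9 lists holding 131 further genes of the matrices, gave the surroundings of this pattern. In injured-tubule-like cells 4 of the 55 with enough counts were higher and 17 lower in control cells, and 3 of 56 were higher and 13 lower in haplodeficient cells, with median log2 ratios of -0.26 and -0.17. Over all genes judged 489 of 3252 were higher and 335 (10.3%) lower in control, and 6.75% higher and 8.41% lower in haplodeficient cells. The higher ones included Cp, the ferroxidase ceruloplasmin that works with ferroportin (71.6 against 1007 CPM in control and 178 against 928 CPM in haplodeficient cells), Lcn2, which binds iron-carrying siderophores (8.99 against 93.5 CPM and 16.2 against 168 CPM), and Gstm1, a glutathione transferase (log2 ratios 1.15 and 1.27). The lower ones included the filtered-protein receptors Lrp2 (log2 -2.05 and -2.10) and Cubn (-1.85 and -1.56), the secreted peroxidase Gpx3 (-2.11 and -1.96), the selenium carrier Selenop (-1.68 and -1.53) and, in control cells, Cbs of cysteine synthesis (-2.88) and Ggt1 of glutathione breakdown (-2.61). Of the selenoprotein list 3 of 5 judged genes were lower in each library. Of the glutathione and cystine list 4 of 10 were lower and 2 higher in control, 2 lower and 1 higher in haplodeficient cells. Of the lipid substrate list 3 and 2 of 8 were lower, of the NRF2 list 2 and 1 of 8, and of the iron uptake and export list 2 of 7 were higher and 2 lower in each library. The lists of iron-sulfur clusters, haem synthesis, haem breakdown and radical trapping each had 1 lower gene in each library. With so few genes judged, the counts of these lists are a description beside the shares lower over all genes, 10.3% and 8.41%. Cp and Lcn2 are widely used as tubular injury genes as well as iron genes.

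Macrophage type was read within each library as lipid-associated-macrophage-like cells (158 control, 409 haplodeficient; markers such as Gpnmb and Trem2) against resident-macrophage-like cells (618 and 928; markers such as C1qa and Mrc1). By the size rule 4 of the 10 members were higher in control cells (Slc7a11, Fth1, Ftl1 and Ncoa4), of 7 with enough counts, and 2 in haplodeficient cells (Slc7a11 and Fth1), of 6; none was lower. Over all genes 6.27% of 2745 and 5.97% of 2662 were higher by the rule, and 6.85% and 6.99% lower. The resident markers did not by themselves separate these classes. The lipid-associated-macrophage-like cluster met 7 of 9 resident markers as well as 5 of 8 of its own. Folr2, a resident marker, was at only 15.9 and 23.0 CPM in the resident-macrophage-like class. The classes differed in depth, with medians of 9686.5 and 10999 UMIs in lipid-associated against 4228.5 and 4056.5 UMIs in resident cells.

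Slc7a11 had the largest of these differences, 37.9 against 174 CPM in control cells (ratio 4.59, interval 3.68 to 5.78) and 40.5 against 167 CPM in haplodeficient cells (4.13, 3.50 to 4.90). Fth1 ratios were 2.47 (2.44 to 2.51) and 2.12 (2.10 to 2.14), and Ftl1 ratios 2.45 (2.41 to 2.49) and 1.99 (1.96 to 2.01), the last at a log2 ratio of 0.99, just under the limit. Ncoa4 went from 34.7 to 83.4 CPM in control cells (2.40, 1.85 to 3.13) and from 30.3 to 51.8 CPM in haplodeficient cells (1.71, 1.38 to 2.13). Levels of ferritin and of its lysosomal receptor were thus both higher in the Gpnmb-marked class, though not all met the rule. Gpx4 was higher as well, with ratios of 1.71 (1.54 to 1.90) and 1.99 (1.85 to 2.13), and Aifm2 rested on 6 against 29 UMIs and 21 against 90 UMIs. Acsl4 was also higher, with ratios of 1.46 (1.14 to 1.86) and 1.35 (1.13 to 1.61). Below the 50 CPM minimum, Slc40a1 had ratios of 1.75 (1.03 to 2.97) and 2.78 (1.89 to 4.20). Tfrc, also below it, had 1.17 (0.481 to 2.77) and 1.76 (0.952 to 3.40). Hmox1 was lower, 166 against 117 CPM (0.704, 0.596 to 0.829) and 206 against 174 CPM (0.842, 0.766 to 0.926). Over the alternatives its log2 ratio ran from -0.56 to -0.09 in control, and from -0.30 to 0.08 in haplodeficient cells, where the sign turned in 2 of 14. In monocyte-like cells Fth1, at 7860 and 6829 CPM, was below both macrophage classes, and Slc7a11, at 206 and 321 CPM, above the resident class in each.

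When each library was grouped by scoring every cell alone instead of by cluster, the haplodeficient count went from 2 to 0 members and the control count from 4 to 3, and without the shallow resident-macrophage-like cluster (49 control and 202 haplodeficient cells, median 835 UMIs) the haplodeficient count was 4. Of the 131 further pathway genes, 6 of 36 judged were higher and 2 lower in control cells, and 6 of 34 were higher and 3 lower in haplodeficient cells. Over all genes judged 6.27% were higher and 6.85% lower in control, and 5.97% higher and 6.99% lower in haplodeficient cells. With so few genes judged, the counts of single lists are a description. Of the NRF2 antioxidant list 2 of 6 judged genes were higher and 1 lower in each library. The higher ones were Txn1 (thioredoxin), at 231 against 1028 CPM and 338 against 1140 CPM, and Prdx1 (peroxiredoxin), at 528 against 1543 CPM and 588 against 2114 CPM. Mgst1, a membrane glutathione transferase, went from 31.4 to 198 CPM and from 17.7 to 130 CPM, and Lrp1, a receptor for the haem-haemopexin complex, from 74.1 to 336 CPM and from 84.4 to 326 CPM. Bach1, the haem-binding repressor of Hmox1 and ferritin genes, was lower in both (197 against 75.3 CPM and 130 against 56.0 CPM), and so was Cp (93.2 against 11.8 CPM and 95.8 against 15.7 CPM).

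Between the libraries the members differed little. By the size rule 3 of the 110 member-and-class pairs with enough counts differed (2.73%, of 250 pairs in all), 1 higher and 2 lower in haplodeficient cells, where 2.27% of all 83526 gene-and-class pairs did (1.01% higher and 1.26% lower). The share of the members was near this background. Fth1, Ftl1 and Gpx4 had the counts in all 25 classes and met the rule in none.

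**Figure D4:**
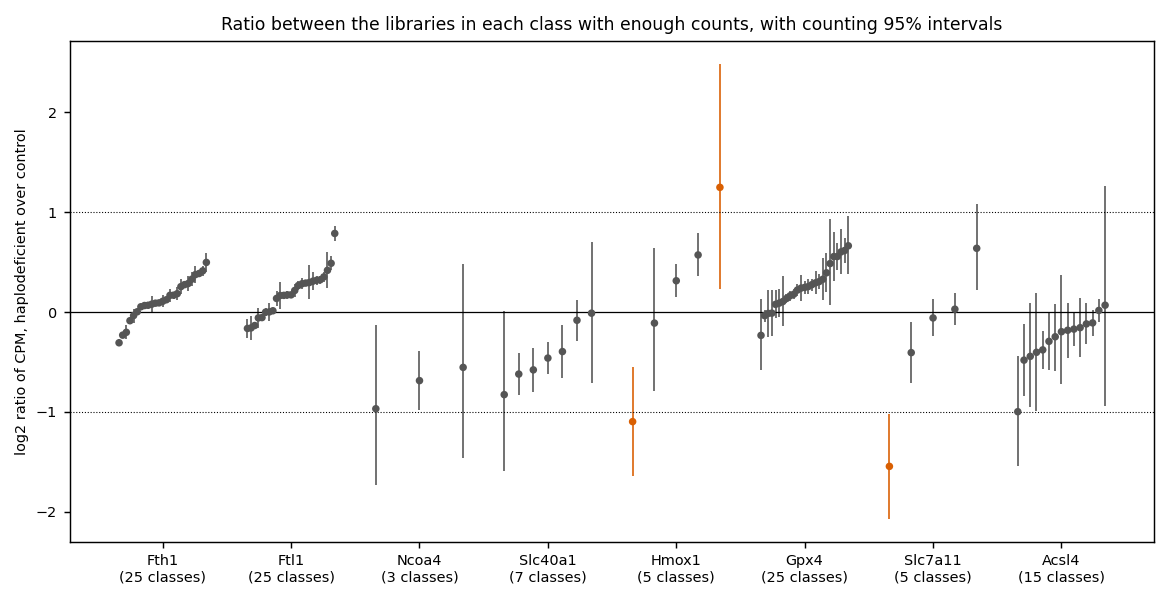
Log2 ratio of CPM, haplodeficient over control (y axis), in every class where the gene had enough counts, with 95% counting intervals; genes are on the x axis with their number of classes, dotted lines mark a log2 ratio of 1 in size, and the 3 pairs meeting the size rule are in orange. All 25 values of Fth1, Ftl1 and Gpx4 lie between the dotted lines, and all 7 class values of Slc40a1 and 3 of Ncoa4 lie below 0; that of Slc40a1 in principal-like cells does not hold within its clusters.

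The small differences of the abundant members leaned upward. Gpx4 had a median log2 ratio of 0.24 over 25 classes, 21 of them above 0, with a range from -0.23 to 0.65; the counting interval of the ratio lay above 1 in 18 classes and below 1 in 0. Ftl1 had a median of 0.17 (interval above 1 in 17 classes, below in 4) and Fth1 of 0.11 (19 and 4). With mitochondrial genes left out of the total the medians were 0.17 for Gpx4, 0.13 for Ftl1 and 0.07 for Fth1, with 19, 17 and 17 classes above 0. Over all gene-and-class pairs the interval lay above 1 in 26.6%, below 1 in 22.0% and on either side in 48.6%, so counting intervals that leave out 1 were common in libraries of this depth. The largest Gpx4 ratios were in T-cell-like cells (217 against 345 CPM; 1.58, 1.30 to 1.95), intercalated-like cells (558 against 856 CPM; 1.53, 1.40 to 1.68) and dendritic-like cells (155 against 236 CPM; 1.52, 1.30 to 1.78). For Fth1 the largest was in T-cell-like cells (1951 against 2754 CPM; 1.41, 1.32 to 1.51) and for Ftl1 in the unnamed cluster led by Calb1, S100g and Slc8a1 (1006 against 1736 CPM; 1.73, 1.63 to 1.82). The median mitochondrial share was lower in haplodeficient cells in each of these classes, for example 6.20% against 9.99% in intercalated-like cells, and Fth1 in free RNA was 8215 against 6058 CPM. The part of mitochondrial content in these ratios was not tested. Gpx4 in free RNA was 877 CPM in control and 823 CPM in haplodeficient droplets. The estimated free-RNA share of UMIs in control and haplodeficient cells was 4.96% and 2.70% in T-cell-like and 4.10% and 2.43% in intercalated-like cells. It was 3.00% and 2.13% in the Calb1-led cluster and 2.22% and 2.89% in dendritic-like cells. The part of free RNA in these ratios was not tested.

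Slc40a1 leaned downward when read by class, under both other scalings as well, but its clearest class did not keep this inside its clusters. All 7 classes with enough counts had log2 ratios from -0.78 to -0.01, and the interval lay below 1 in 4: principal-or-connecting-tubule-like (0.650, 0.562 to 0.752), thick-ascending-limb-like (0.727, 0.651 to 0.811), injured-tubule-like (0.760, 0.630 to 0.913) and the unnamed cluster led by Psca, Mmp7 and Olfm4 (72.7 against 48.7 CPM; 0.669, 0.573 to 0.781). The principal-or-connecting-tubule-like class joins a cluster led by Sprr2f (253 control and 537 haplodeficient cells) and another led by Aqp2, the principal-cell water channel (134 and 46 cells). In the first Slc40a1 was level, at 40.8 CPM (33.4 to 49.5) against 42.0 CPM (37.0 to 47.6), and in the second it was higher in haplodeficient cells, at 141 CPM (125 to 158) against 194 CPM (160 to 234). The lower class level thus went with fewer cells of the Aqp2-led cluster, and is not a lower level within either cluster. The S1/S2 class also held clusters of opposite direction (75.2 against 65.7 CPM and 29.8 against 33.99 CPM, the last from 7 UMIs); the other 5 classes were single clusters. Free RNA held 36.3 CPM of it in control and 19.8 CPM in haplodeficient droplets and accounted by estimate for at most 4.78% of the gene's counts in those 4 classes. Tfrc was lower in several tubule classes at counts below the minimum, among them thick-ascending-limb-like cells (309 UMIs, 30.8 CPM against 211 UMIs, 13.6 CPM; 0.441, 0.369 to 0.528) and distal-convoluted-tubule-like cells (39.7 against 25.4 CPM; 0.639, 0.514 to 0.791), while injured-tubule-like cells were level (12.2 and 12.4 CPM). Ncoa4 was lower in lipid-associated-macrophage-like cells (0.621, 0.508 to 0.761) and monocyte-like cells (0.511, 0.301 to 0.911). Acsl4 had a median log2 ratio of -0.19 over 15 classes with the interval below 1 in 5 and above 1 in 0.

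The 3 pairs that met the rule rested on few molecules or few cells. Hmox1 in neutrophil-like cells was 48.5 CPM from 8 UMIs in control and 115 CPM from 135 UMIs in haplodeficient cells, a ratio of 2.38 (1.17 to 5.62); 1.86% of genes judged in that class were higher by the rule. After thinning to 1000 UMIs the shares of these cells with an Hmox1 UMI were 8.33% (8 of 96) and 7.91% (45 of 569), and before thinning 7.77% and 12.7%. The control shares rest on 8 cells with an Hmox1 UMI, too few for the shares to decide on that ratio. Dividing leukocytes gave Slc7a11 at 119 CPM (69 UMIs) in control and 40.9 CPM (59 UMIs) in haplodeficient cells, a ratio of 0.342 (0.238 to 0.492), in a class where 3.93% of genes were lower by the rule. In the control 11 of 47 cells carried those UMIs, 1 cell holding 26 of them, and without that cell the control level was 78.8 CPM. Hmox1 in the same class was 93.4 CPM (54 UMIs) against 43.7 CPM (63 UMIs), a ratio of 0.467 (0.320 to 0.685), but 1 control cell held 35 of the 54 UMIs and without it the control level was 33.97 CPM, below the haplodeficient one. The class joins a cluster with macrophage markers (38 control and 64 haplodeficient cells) and another with T-cell markers (9 and 47 cells); in the first alone Slc7a11 was 132 against 57.1 CPM and Hmox1 105 against 58.1 CPM, a log2 ratio of -0.80 that no longer met the rule.

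In the main endothelial-like class, a class where the Cre acts, 3 of the 10 members (Fth1, Ftl1 and Gpx4) had enough counts to be judged. Of these 0 met the size rule, where 0.919% of 3807 genes did. Fth1 had a ratio of 1.08 (1.03 to 1.12), Ftl1 1.16 (1.11 to 1.22), Gpx4 1.18 (1.08 to 1.29), Acsl4 1.03 (0.753 to 1.41), Ncoa4 0.887 (0.651 to 1.22), Tfrc 1.05 (0.629 to 1.82) and Hmox1 0.891 (0.537 to 1.52). Slc7a11 was 3.80 CPM from 7 UMIs against 9.003 CPM from 38 UMIs (2.37, 1.05 to 6.29), with an estimated free-RNA part of 10.4% and 30.4%. These intervals cover counting error only, so they set no limit for the difference between the libraries that could be detected. Red-cell transcripts in this class summed to 15.2 and 90.7 CPM. The unnamed clusters led by Cldn5 each met 8 of 9 endothelial markers and are not part of this class. In the one with Aqp1, 1 of 3 judged members had a log2 ratio above 0 and 2 below 0, and Ftl1 made up 0.152% against 0.136% of UMIs. In the one with Sox17, which also met 7 of 8 pericyte or smooth muscle markers, all 3 were above 0.

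Of the 131 further pathway genes, 37 of 997 gene-and-class pairs with enough counts met the size rule between libraries (3.71%, against 2.27% of all pairs), 10 higher and 27 lower, and 19 of the lower ones were Gpx3. Gpx3, which proximal tubule cells secrete into plasma, was lower in 19 of 25 classes by log2 ratios from -4.92 to -1.22, for example 557 against 34.1 CPM in neutrophil-like and 308 against 31.7 CPM in endothelial-like cells. Its level in free RNA was 6146 CPM for control and 1183 CPM for haplodeficient droplets, and the free-RNA estimate covered 85.9% and 100% of its counts in neutrophil-like and 100% in endothelial-like cells. The estimate was lower in other classes. It was 31.1% and 11.1% in intercalated-like cells (810 against 258 CPM) and 72.4% and 17.7% in fibroblast-like cells (556 against 228 CPM). The part of free RNA in these differences was not tested. Lcn2 was higher in 4 classes, and its level in free RNA was 393 and 1138 CPM. In descending-thin-limb-like cells it was 831 against 1783 CPM, with an estimated free-RNA part of 3.14% and 2.77%. In the Calb1-led cluster it was 355 against 812 CPM (3.32% and 2.98%). In intercalated-like cells it was 151 against 442 CPM (10.6% and 6.26%), and in pericytes or smooth muscle 56.4 against 349.6 CPM (36.0% and 23.6%). Cp was higher in S1/S2 cells (81.9 against 209 CPM) and Ggt1 in injured-tubule-like cells (60.9 against 137 CPM). Gclc, the rate-limiting enzyme of glutathione synthesis, was lower in neutrophil-like cells (127 CPM from 21 UMIs against 46.9 CPM from 55 UMIs), and Elovl5, which lengthens polyunsaturated fatty acids, in T-cell-like cells (144 against 67.1 CPM).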

How the data were processed

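Single-cell 3′ libraries (10x Chromium v3.1) of 2 samples were used, 1 per group. The deposited matrices hold raw UMI counts per gene and barcode for all barcodes, made with Cell Ranger 4 per the file headers and with genome build mm10 per the submitters' processing notes; the annotation is not given in the sources used here. From 1342632 control and 1430043 haplodeficient barcodes (134190236 and 114668145 UMIs), those with 500 UMIs, 200 genes and at most 50% mitochondrial UMIs were kept. Scrublet in scanpy 1.11.5 removed 715 and 804 doublets, at a rate of 0.8% per 1000 cells. Both libraries were clustered together (Leiden, leidenalg 0.10.2, resolution 1, 30 components, 15 neighbours, 2000 variable genes) without the members, the listed pathway genes and mitochondrial genes. Clusters were named from listed markers when at least 3 were detected in 10% of cells at 2-fold; this scoring, including when a second class's markers left a cluster unnamed, was set after the data were seen, so class shares may differ from the study's. Counts were summed per class and library as CPM with exact Poisson 95% intervals, ratios with conditional binomial intervals, and shares with exact binomial (Clopper-Pearson) intervals. The limit for a share of 0 is 3 counts of the total. PCR duplicates are collapsed by UMI. The free-RNA part of a class is the median of observed over expected UMIs of other classes' markers at or below expectation, with the profile of barcodes of 1 to 100 UMIs. The size rule is in the report; with 1 library per group no test was made. The size rule was tried only on simulated counts with counting error, which hold no spread between cells or animals. UTRs and coordinates came from GENCODE M21 (GRCm38), which matched 32158 of 32285 gene IDs (99.6%). The members and lists were chosen with earlier results of these data known. The text names all members and, of the other lists, at most the 5 largest in each direction per contrast, with the 3 most alike genes per member reduced to 1 for the less alike; classes and clusters given as examples, and the splits of a class into its clusters, were chosen after their values were seen. There were 13 planned and 3 added alternatives.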

Additional observations from a re-analysis of the deposited data

Results flagged for a closer look

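The contrast of injured-tubule-like with proximal-tubule-like cells gave opposite signs in the libraries for 2 members. Hmox1 had a log2 ratio of 0.18 in control and -0.59 in haplodeficient cells, a difference (haplodeficient minus control) of -0.77. Slc40a1 had 0.14 and -0.16, a difference of -0.30. The difference was not tested, since each group is 1 library, and the signs were not stable: over the alternatives Hmox1 ran from -0.16 to 0.41 in the control and from -0.79 to 0.18 in the haplodeficient library, and Slc40a1 from -0.17 to 0.44 and from -0.46 to 0.13.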

How the results depend on the processing

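No paired analysis was possible because each group is 1 library. Of 68 counts recomputed under the alternatives, 54 stayed within 1.5 times the reported count. For pairs of member and class differing between libraries, 1 remained in number with no doublets removed and 1 with each cell classed alone, against 3. For injury state the control count of 0 became 1 with a minimum of 10 CPM (Tfrc), 2 under median-of-ratios scaling (Fth1 and Ftl1) and 1 without mitochondrial genes in the total (Fth1); the haplodeficient count of 0 became 2 with each cell classed alone and 1 under median-of-ratios scaling, without mitochondrial genes and with cells weighted equally. For macrophage type the haplodeficient count of 2 became 4 at a minimum of 1000 UMIs, with that library clustered alone, at a minimum of 10 CPM and without the shallow resident cluster (added after seeing the data, as were the other cluster omissions), and 0 with each cell classed alone. The cause of these changes was not tested. Clustered alone, the control gave no lipid-associated class and the haplodeficient library no injured class, so those values could not be had. Under these alternatives no value that met the size rule reversed its sign, but without 1 control cell Hmox1 in dividing leukocytes was 33.97 CPM in control, below the 43.7 CPM of haplodeficient cells. Depth limits Aifm2, Tfrc, Ncoa4 and Slc7a11 outside myeloid cells.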
